A study of Polypedilum vanderplanki with 84 samples.

Results

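The second day of trehalose preconditioning was examined in Pv11, a cell line derived from the anhydrobiotic midge *Polypedilum vanderplanki*. Pv11 cells kept in 600 mM trehalose for 48 h (PreCondTre 48 h) were compared with cells kept in it for 24 h (PreCondTre 24 h), with 3 replicates in each group. These 6 RNA sequencing libraries belong to a course of 30, in which preconditioning was sampled at 0, 12, 24, 36 and 48 h and the dried cells at 0, 3, 12, 24 and 72 h of rehydration, and the table holds 84 libraries in all. All groups are the same cell line. The course was taken over from an earlier study of the same group, and the 54 other libraries are a stress experiment made for this one. As the study describes it, the preconditioning mixture was 600 mM trehalose with only a small part of culture medium. No untreated culture sampled at 24 or 48 h belongs to the course. Hours in trehalose, hours with little culture medium and hours in culture therefore cannot be told apart. The values are TPM, a measure of relative abundance that corrects for transcript length and adds up to the same total in each library. TPM of the transcripts of a gene were added up. Of 18248 genes, the 9450 whose TPM averaged more than 1 across the 84 libraries were tested. Just below that limit lay nc244 (mean TPM 0.9994) and g16647 (0.9996), and just above it g10909 (1.001) and g256 (1.002).

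Anhydrobiosis is the ability to survive almost complete loss of water. Trehalose, a nonreducing disaccharide, protects membranes and proteins in the dry state, and Pv11 cells are preconditioned with it before they are dried. The cells also express LEA (late embryogenesis abundant) proteins, hydrophilic and largely disordered proteins that protect other proteins from aggregation during drying, and LIL (Lea-island-located) proteins, which are predicted to cross the membrane. Genes of both families stand in tandem in ARId1, an anhydrobiosis-related island of the genome. The end of preconditioning at 48 h is the state in which the cells enter drying, and its comparison with 24 h describes how the libraries of these times differ.

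Some libraries of the course stood apart from their group. The libraries labelled PreCondTre 24 h correlated with each other at r = 0.991 to 0.995 across the genes tested, and those labelled 48 h at 0.991 to 0.993, where genes are not independent replicates. The library labelled PreCondTre 36 h replicate 3 correlated with the 48 h libraries at 0.990 to 0.992 and with the others of its own label at 0.962 to 0.963. PreCondTre 36 h replicates 1 and 2 correlated with the 24 h libraries at 0.985 to 0.991. The median SD of a gene within a group was 0.11 on the log2(TPM + 1) scale at 24 h, 0.214 at 36 h and 0.101 at 48 h, so the groups compared were tight and the group between them was not. Unevenness of the same kind was seen before 24 h for the genes that rose from 24 h to 48 h, described next. Their median TPM was 14.6, 8.48 and 13.9 in replicates 1, 2 and 3 at 0 h, and 12.7, 13 and 5.26 at 12 h. It was 5.1, 4.86 and 4.86 at 24 h, then 5.56, 5.16 and 14.1 at 36 h and 13.6, 16.2 and 15.4 at 48 h. Thus 0 h replicate 2, 12 h replicate 3 and 36 h replicate 3 each differed from the other libraries of their group in these genes. The libraries of 24 h and those of 48 h did not overlap in them, which follows from the calls. Further measures moved with this level. The median ratio scaling factor, which is the median ratio of a library's genes to their geometric mean over all libraries, was 0.774 to 0.825 at 24 h and 1.1 to 1.19 at 48 h. In replicates 1, 2 and 3 it was 1.01, 0.844 and 0.966 at 0 h, 0.981, 0.99 and 0.797 at 12 h and 0.848, 0.811 and 1.02 at 36 h. The share of TPM held by the 100 most abundant genes was 47.1%, 51.7% and 47.7% at 0 h and 41.9%, 42.1% and 47.1% at 12 h. It was 46.4%, 46.7% and 47% at 24 h, 46%, 47% and 40.3% at 36 h and 40.2%, 38.8% and 39.7% at 48 h. The part of these differences between libraries in the comparison of 48 h with 24 h was not tested. In bulk RNA, fewer cells of a kind and less RNA per cell cannot be told apart.

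**Figure D1:**
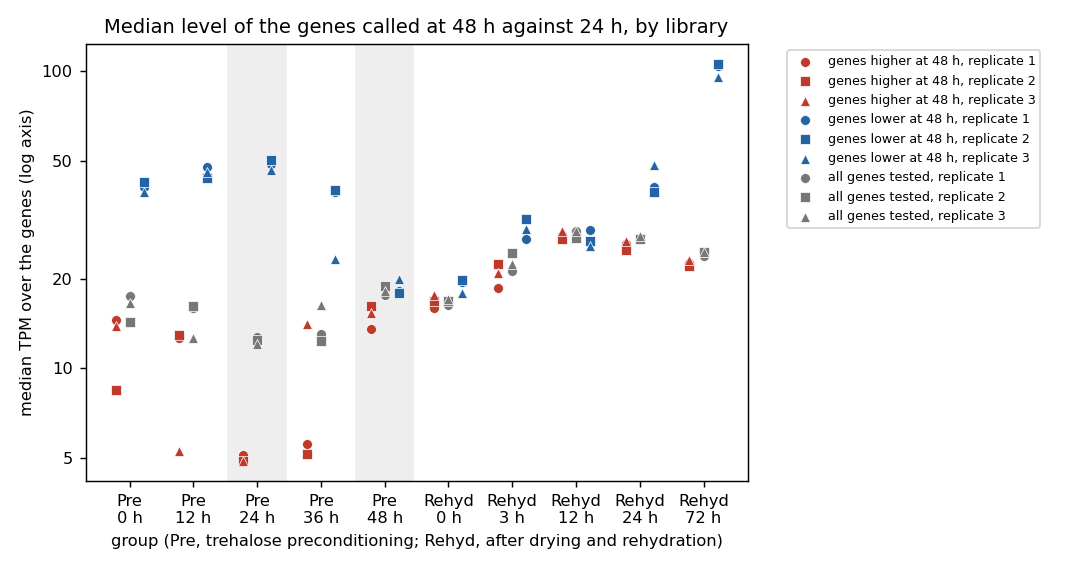
Median TPM, on a log axis, of the 1253 genes called higher at 48 h than at 24 h (red), the 54 called lower (blue) and all 9450 genes tested (grey) in each library of the course, with a marker shape for each replicate and grey bands over the groups compared. Red points lie at 4.86 to 5.1 at 24 h and 13.6 to 16.2 at 48 h, with 1 library apart from the others of its group at each of 0, 12 and 36 h, while the blue points of 0, 12 and 24 h lie together at 39.3 to 50.2.

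The expression of 1253 genes was higher at 48 h than at 24 h and that of 54 was lower, which is 13.3% and 0.571% of the genes tested (limma on log2(TPM + 1), with calls past 2-fold at a Benjamini-Hochberg adjusted p below 0.05). The whole table leaned upward: the median log2 change of all genes tested was 0.41, and 95.9% of the calls were higher. Dividing each library by its median ratio factor moved the median to -0.02 and gave 456 genes higher (4.83%) and 271 lower (2.87%), so 62.7% of the calls were then higher. Of the genes called on TPM, 456 of the 1253 higher and 54 of the 54 lower were called again in the same direction after scaling, and none changed sign. The changes were mostly modest in size. The median log2 change of the genes called higher was 1.29, with quartiles of 1.12 and 1.55, and 98 of them rose more than 4-fold on the log2(TPM + 1) scale. The median of those called lower was -1.19, and 4 of them fell more than 4-fold. The genes called higher held 1.78%, 1.76% and 1.83% of all TPM at 24 h and 4.42%, 5.01% and 4.84% at 48 h. The genes called lower held 1.63%, 1.61% and 1.63% at 24 h and 0.722%, 0.658% and 0.705% at 48 h. Those shares follow from the calls and are given as a description.

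Higher calls were most frequent among genes of middle abundance, on the log2(TPM + 1) scale, which understates the fold change of low genes. They made up 6.66% of the genes with a mean TPM of 1 to 2, 16.9% at 2 to 5, 20.8% at 5 to 10, 15.8% at 10 to 50, 7.25% at 50 to 100 and 4.88% above 100. Lower calls were most frequent at the top, with 1.63% of the genes above 100 TPM and 0.234% of those at 1 to 2. After scaling, 1.24% of the genes above 100 TPM were higher and 11.5% lower, and at 1 to 2 TPM 2.22% and 0.467%. The 100 genes with the highest mean TPM over all libraries included 0 higher calls and 1 lower call in limma. At an adjusted p below 0.05 alone, 7 of them were higher and 69 lower, against 54.7% and 7.15% of all genes, and 82 had a negative log2 change. Their share of TPM was 46.7% ± 0.297 at 24 h and 39.6% ± 0.671 at 48 h (SD, n = 3, p = 0.1 in an exact two-sided permutation test, which is the smallest p that 3 libraries against 3 allow). The shares of the 24 h and 48 h libraries did not overlap.

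**Figure D2:**
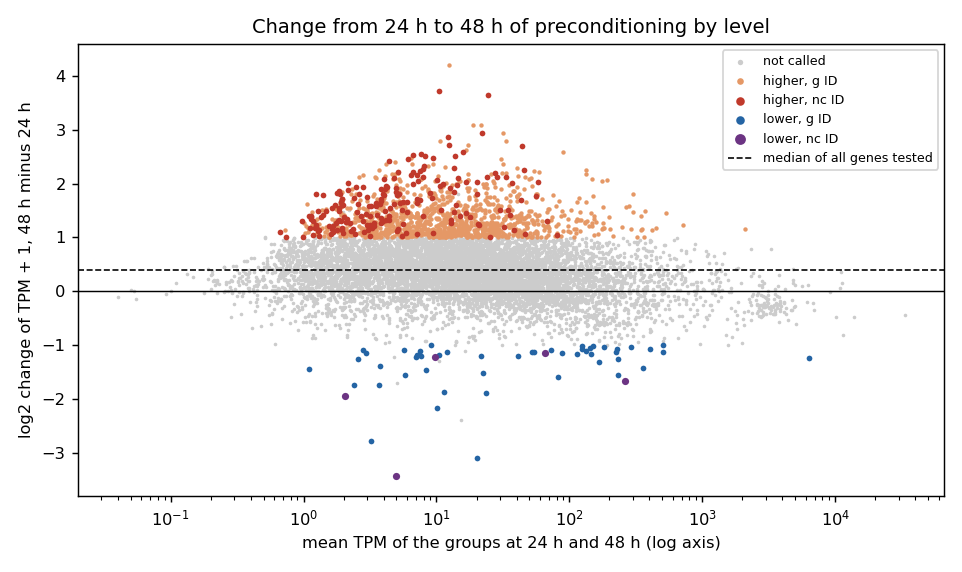
Log2 change of TPM + 1 from 24 h to 48 h for each gene tested, against its mean TPM in the groups compared on a log axis, with noncoding genes (nc IDs) and other genes (g IDs) coloured apart where they were called. The dashed line marks the median of all genes at 0.41, and the cloud bends below it among the most abundant genes.

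The largest rises by log2 change among the named genes were those of g3547 and nc438. Both were listed at 0 at 24 h, so no fold is given. The gene g3547 was listed at 0 in each library at 24 h and had 24.8, 45.8 and 4.28 TPM at 48 h (log2 change 4.21, SE 1.29, limma adjusted p = 0.0073). The noncoding gene nc438 was likewise listed at 0 in each library at 24 h and had 7.74, 50.6 and 4.11 TPM at 48 h (log2 change 3.72, SE 1.54, adjusted p = 0.04 in limma). Both varied several-fold among the 48 h libraries, and elsewhere in the course they were at 0 in some libraries of a group and not in others. At 0 h they had 13.4, 0 and 28.6 TPM for g3547 and 63.1, 0 and 15 TPM for nc438. The call of nc438 was lost, with adjusted p = 0.054 to 0.18 in limma, when any of the 24 h libraries or 48 h replicate 1 or 2 was left out.

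The other genes among the 10 largest rises were measured in every library of both groups. The 24 h and 48 h libraries of each did not overlap, which the rule for naming these genes required. The noncoding gene nc430 had 4.03, 2.45 and 1.96 TPM at 24 h and 35.6, 54.8 and 48.6 TPM at 48 h, a ratio of group means of 16.5 (log2 change 3.65, SE 0.768, limma adjusted p = 4.2e-04). The gene g2159 had 3.18, 2.63 and 3.54 TPM at 24 h and 27.8, 37.1 and 38.4 TPM at 48 h, 11-fold higher. For g17822 the values were 5.3, 3.06 and 3.08 TPM at 24 h and 31.9, 47.1 and 39.6 TPM at 48 h, 10.4-fold higher. All 3 were low in each 24 h library and high in each 48 h library. In the 36 h group they were low in replicates 1 and 2 (4.21 and 2.89 TPM for nc430, 3 and 2.77 TPM for g2159, 5.43 and 5.35 TPM for g17822) and high in replicate 3 (58.3, 39.4 and 41.9 TPM). The noncoding genes nc803 and nc693 rose 9.34-fold and 11-fold, from 3.89 to 4.97 TPM up to 30.9 to 51 TPM and from 1.68 to 2.66 TPM up to 13.6 to 33.7 TPM. The gene g552 had 2.12, 1.52 and 2.15 TPM at 24 h and 16.9, 19.6 and 21.4 TPM at 48 h, 10-fold higher. For g8972 the values were 9.2, 7.52 and 6.4 TPM at 24 h and 48.6, 64.9 and 64.2 TPM at 48 h, 7.68-fold higher. These genes had also been high in part of the earlier course. The gene g8972 had 108, 39.5 and 121 TPM at 0 h and 128, 131 and 10.1 TPM at 12 h, and g552 had 14.5, 5.25 and 14.5 TPM at 0 h and 12, 11.6 and 1.66 TPM at 12 h. In both, 0 h replicate 2 and 12 h replicate 3 were below the others. The high libraries of 0 h and 12 h lay above those of 48 h in g8972 and below them in g552. Limma adjusted p of these genes ranged from 1.1e-04 to 0.0032 and all were called after scaling as well, with log2 changes of 2.33 to 3.23.

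A second kind of rise ran through the 36 h libraries by degrees. The gene g14352 had 10.7, 5.78 and 3.82 TPM at 24 h, 27.2, 18 and 19.7 TPM at 36 h and 45.3, 75.7 and 48.2 TPM at 48 h, 8.33-fold higher at 48 h than at 24 h (log2 change 2.94, SE 0.299, limma adjusted p = 1.1e-07). Each 36 h library lay above each 24 h library and below each 48 h library. The gene g553, the most abundant gene called higher, had 1260, 1349 and 1320 TPM at 24 h, 1988, 2091 and 2451 TPM at 36 h and 2895, 2878 and 2942 TPM at 48 h, 2.21-fold higher at 48 h (log2 change 1.15, SE 0.084, limma adjusted p = 8.5e-10). Its ID follows directly on that of g552, whose 36 h libraries were 2.28, 1.99 and 16.1 TPM. This pair of neighbouring IDs thus differed in how the 36 h libraries lay. At the start of rehydration g553 stood at 3129, 3117 and 3178 TPM.

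The other abundant genes called higher moved in the stepwise way. In g2384 the 24 h libraries had 418, 415 and 442 TPM, the 36 h libraries 450, 423 and 914 TPM and the 48 h libraries 943, 1052 and 1015 TPM, 2.35-fold higher at 48 h. In g8670 they had 260, 286 and 312 TPM, then 254, 244 and 992 TPM, and 736, 795 and 816 TPM at 48 h, 2.73-fold higher. In g4339 and g8977 the 48 h libraries (574 to 644 and 544 to 598 TPM) stood 2.25-fold and 2.2-fold above those of 24 h (272 to 281 and 237 to 285 TPM), with 36 h replicate 3 at 645 and 683 TPM. The 36 h replicates 1 and 2 of these genes all lay near the 24 h libraries. After scaling, none of the 5 most abundant genes called higher passed the fold change of 2, with log2 changes of 0.63 to 0.95, though each kept an adjusted p under 0.05 (1.1e-06 to 0.047 in limma).

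**Figure D3:**
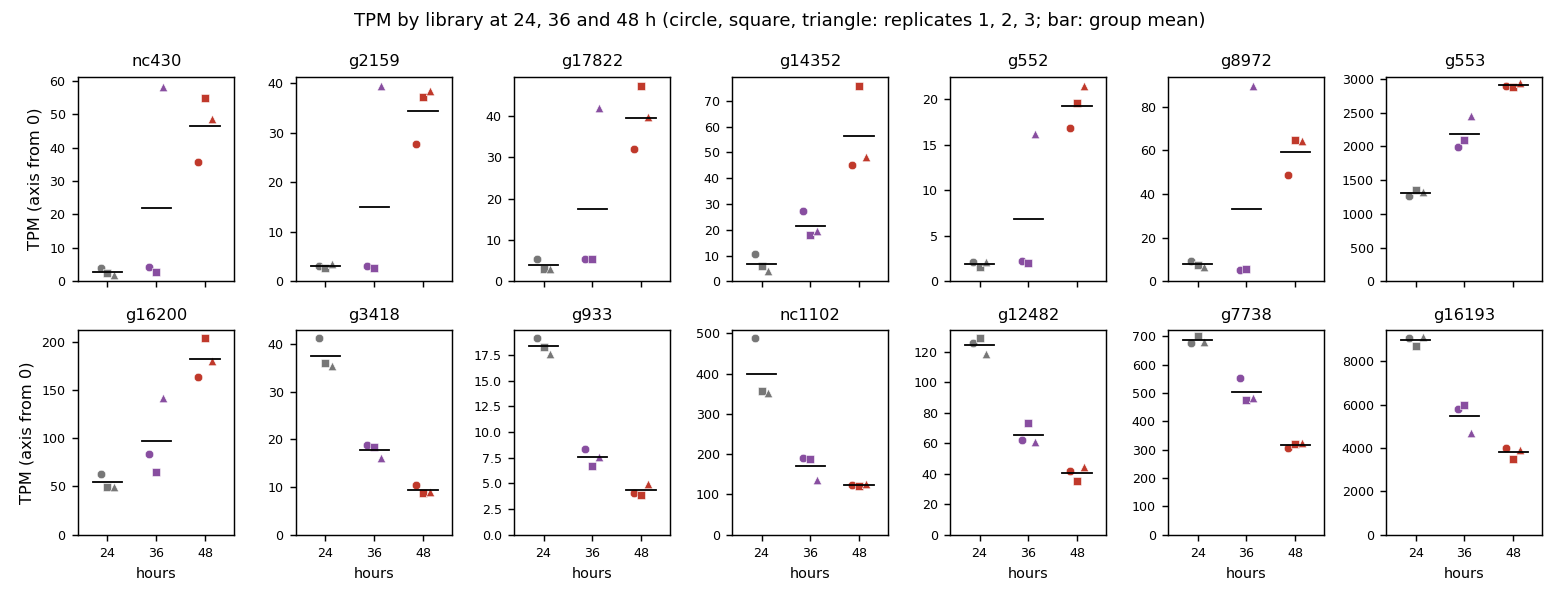
TPM of 14 named genes in each library at 24 h (grey), 36 h (purple) and 48 h (red), with a marker shape for each replicate, the group mean as a bar and an axis from 0 for each gene. In nc430, g2159, g17822, g552 and g8972 the 36 h triangle (replicate 3) lies with the 48 h libraries and the other 36 h libraries with those of 24 h, while g14352, g553 and the genes of the lower row have all 3 36 h libraries between the groups compared.

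The genes that fell did so mostly by degrees. The gene g3418 had 41.2, 35.9 and 35.3 TPM at 24 h, 18.8, 18.4 and 16 TPM at 36 h and 10.5, 8.71 and 8.97 TPM at 48 h, 4-fold lower at 48 h than at 24 h (log2 change -1.89, SE 0.131, limma adjusted p = 4.1e-10). The gene g933 had 19.1, 18.3 and 17.6 TPM at 24 h, 8.37, 6.67 and 7.56 TPM at 36 h and 4.06, 3.89 and 4.95 TPM at 48 h, 4.28-fold lower. In each, all 36 h libraries lay between the groups compared and close to each other. The noncoding gene nc1102 was the most abundant noncoding gene among the named falls, with 489, 357 and 353 TPM at 24 h, 189, 188 and 136 TPM at 36 h and 124, 122 and 125 TPM at 48 h, 3.24-fold lower (log2 change -1.67, SE 0.226, limma adjusted p = 4.7e-06). The gene g12482 had 126, 129 and 118 TPM at 24 h, 62.2, 73.5 and 60.8 TPM at 36 h and 41.9, 35.3 and 44.5 TPM at 48 h, 3.05-fold lower.

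The abundant genes called lower followed the same graded course. In g7738 the 24 h libraries had 678, 701 and 682 TPM, the 36 h libraries 552.6, 474 and 482 TPM and the 48 h libraries 306, 320 and 322 TPM, 2.17-fold lower at 48 h. In g6222 they had 533, 554 and 550 TPM, then 337, 325 and 325 TPM, and 267, 252 and 255 TPM at 48 h, 2.12-fold lower. In g1646 they had 499, 549 and 516 TPM, then 363, 337 and 266 TPM, and 203, 181 and 195 TPM at 48 h, 2.7-fold lower. Every 36 h library of these genes lay below every 24 h library and above every 48 h library. The gene g6089 fell 2.01-fold, from 634, 704 and 689 TPM to 332, 332 and 344 TPM, and lay at the border of the fold change: its log2 change of -1.01 became -0.98 to -1 and the call was lost without 24 h replicate 2 or 3 or 48 h replicate 1 or 2. All 5 most abundant genes called lower were called after scaling too, with log2 changes of -1.51 to -1.93.

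The remaining named falls were of genes with low or uneven values. The noncoding gene nc388 had 9.74, 12.8 and 7.28 TPM at 24 h and 26.6 and 20.4 TPM in 36 h replicates 1 and 2, and was listed at 0 in 36 h replicate 3 and in each 48 h library (log2 change -3.42, SE 0.921, limma adjusted p = 0.003). The gene g577 had 34.4, 41.5 and 29.6 TPM at 24 h and 6.55, 0 and 8.71 TPM at 48 h, with 39.3, 44.8 and 13.7 TPM at 36 h and 2.59, 3.98 and 42.2 TPM at 12 h. Similarly g7846 had 19.2, 17.8 and 14.2 TPM at 24 h, 24.5, 15.2 and 1.25 TPM at 36 h and 2.44, 3.13 and 3.53 TPM at 48 h, with 1.71, 2.29 and 24.4 TPM at 12 h. In these 3 genes replicate 3 was the highest at 12 h and the lowest at 36 h, opposite to the stepwise rises. The gene g6417 had 6.31, 9.76 and 3.16 TPM at 24 h and was listed at 0 in each 48 h library and in 36 h replicates 2 and 3. The noncoding gene nc144 went from 5.05, 3.47 and 2.87 TPM to 0, 0.81 and 0 TPM. For g2447, with 7.92, 5.23 and 5.05 TPM at 24 h and 2.51, 1.6 and 0 TPM at 48 h, the call was lost without 48 h replicate 3 (limma adjusted p = 0.054).

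Counted over all calls, rises and falls differed in how the 36 h libraries lay. The position of a library was taken as 0 at the 24 h mean and 1 at the 48 h mean of a gene, on the log2(TPM + 1) scale. Over the 1253 genes called higher, the median position was 0.03 in 36 h replicate 1, -0.01 in replicate 2 and 0.96 in replicate 3. Over the 54 called lower, it was 0.51, 0.49 and 0.73, and over the 271 called lower after scaling 0.39, 0.38 and 0.8, with replicate 3 the farthest from 24 h on both scales. In 669 of the genes called higher (53.4%) replicate 3 alone lay above the range of the 24 h libraries, and in 315 (25.1%) all 3 did. In 39 of the genes called lower (72.2%) all 3 36 h libraries lay below the 24 h range, and in 9 (16.7%) replicate 3 alone did. After scaling, all 3 lay beyond the 24 h range in 74 of 456 genes called higher (16.2%) and in 235 of 271 called lower (86.7%). These are descriptions of the libraries, and the difference between rises and falls was not tested. Thus the graded course at 36 h was seen in all replicates for most falls, and for most rises the level at 36 h differed between the replicates.

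**Figure D4:**
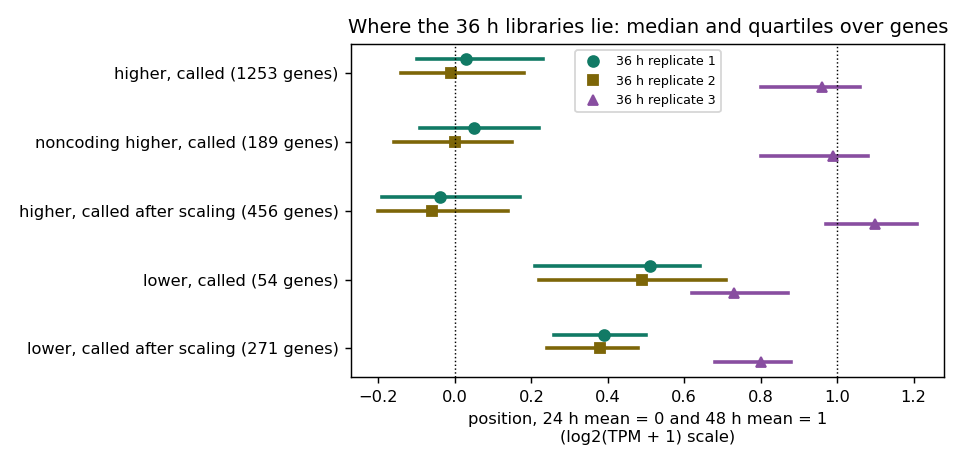
Position of each PreCondTre 36 h library between the 24 h mean (0) and the 48 h mean (1) of a gene, as the median (marker) and quartiles (line) over the genes called higher, the noncoding genes among them and the genes called lower, on TPM and after median ratio scaling. Replicates 1 and 2 sit near 0 for rises and replicate 3 near 1, while for falls the medians of the 3 replicates are 0.51, 0.49 and 0.73 on TPM and 0.39, 0.38 and 0.8 after scaling.

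The steps of 12 h were tested in the same fit. From 24 h to 36 h, 14 genes were called higher (0.148%) and 6 lower (0.0635%). From 36 h to 48 h 401 were called higher (4.24%) and 4 lower (0.0423%). These comparisons share their libraries with that of 48 h against 24 h and are not independent of it. Among the named genes, g14352 was past both thresholds in each step, with a log2 change of 1.62 (SE 0.299, limma adjusted p = 9.8e-04) from 24 h to 36 h and 1.33 (SE 0.299, adjusted p = 0.0063) from 36 h to 48 h. Leaving out 36 h replicate 3 changed the comparison of 48 h with 24 h little, with 1257 genes higher and 55 lower, since the 36 h libraries enter it only through the estimate of the spread. Leaving out 0 h replicate 2, 12 h replicate 3 and 36 h replicate 3 together, a setting chosen after the data were seen, gave 1269 higher and 59 lower.

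A larger share of the noncoding genes than of the other genes was called higher, a difference described here and not tested. These are the long noncoding genes of the gene set, with IDs starting in nc, whose transcripts are not predicted to encode a protein. Of the 1092 listed, 507 were tested, and 189 of these (37.3%) were higher at 48 h and 5 (0.986%) lower, against 1064 (11.9%) and 49 (0.548%) of the 8943 other genes. Their median log2 change was 0.76, against 0.39 for the other genes. At an adjusted p below 0.05 alone, 251 of the 507 noncoding genes and 4919 of the 8943 other genes were higher. Without the fold threshold the noncoding share was thus not the larger. After scaling, 122 noncoding genes (24.1%) were higher and 18 (3.55%) lower, against 334 (3.73%) and 253 (2.83%) of the other genes, with medians of 0.46 and -0.03. The share called higher on TPM was larger in each class of abundance up to 100 TPM. Of noncoding genes, 9.09% were higher at a mean TPM of 1 to 2, 39.8% at 2 to 5, 60.9% at 5 to 10, 49.5% at 10 to 50 and 26.1% at 50 to 100. The shares of the other genes in these classes were 6.34%, 13.4%, 17.7%, 14.8% and 6.85%. Above 100 TPM the shares were 4.35% of 23 noncoding genes and 4.89% of the others. Nearly all noncoding genes tested (504 of 507) have 1 transcript in the table. Among the other genes higher calls made up 16.4% of those with 1 transcript, 14% of those with 2 or 3 and 7.16% of those with 4 or more. The noncoding genes called higher had the stepwise course at 36 h, with median positions of 0.05, 0 and 0.99 in replicates 1, 2 and 3. The noncoding genes as a whole held 1.8% ± 0.157 of TPM at 24 h and 1.74% ± 0.0501 at 48 h (SD, n = 3, p = 0.8 in an exact two-sided permutation test), so the number of genes that rose was not matched by a rise of their summed level. Among them, nc1102 alone went from 353 to 489 TPM down to 122 to 125 TPM.

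In ARId1 most genes were not called, and 31 of the 39 tested had log2 changes below the median of all genes. Of the 41 IDs from g16168 to g16208, 40 were listed and 39 tested, of which 2 were higher and 2 lower (5.13% each, against 13.3% and 0.571% of all genes tested), and their median log2 change was -0.18 against 0.41 for all genes. At an adjusted p below 0.05 alone, 6 were higher and 15 lower, against 54.7% and 7.15% of all genes. After scaling, 2 were higher and 9 lower (5.13% and 23.1%, against 4.83% and 2.87% of all genes), with a median of -0.68, and 8 positive values turned negative. The estimation can split reads of closely similar genes among copies, so values of single copies are uncertain. These IDs need not be the whole island, since the study counts more genes in it. Summed over them, ARId1 held 10.2%, 10.5% and 10.9% of TPM at 24 h and 8.06%, 7.76% and 8.37% at 48 h, with 8.74%, 9.03% and 9.86% at 36 h (p = 0.1 for 48 h against 24 h in an exact two-sided permutation test, the smallest possible). Each 48 h library thus lay below each 24 h library.

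The 2 rises in ARId1 both lay in Block 2, a run of 3 genes from g16198 to g16200 whose border genes encode LIL proteins. The gene g16200 (PvLil2) had 63.1, 49.6 and 49.9 TPM at 24 h, 84.1, 65 and 141 TPM at 36 h and 164, 204 and 180 TPM at 48 h, 3.38-fold higher (log2 change 1.74, SE 0.297, limma adjusted p = 6.2e-05). The gene g16199 had 10.7, 5.78 and 4.91 TPM at 24 h, 16.9, 13.7 and 14.5 TPM at 36 h and 17.5, 28.2 and 23.2 TPM at 48 h, 3.22-fold higher (log2 change 1.6, SE 0.249, adjusted p = 2.3e-05 in limma). All 36 h libraries of both genes were above all those of 24 h, and both were called after scaling. Each went on to a higher level at 0 h of rehydration, with 334, 432 and 466 TPM for g16200 and 67.6, 84 and 95.6 TPM for g16199. The remaining gene of the Block, g16198 (PvLil11), had 35.7, 27.2 and 20.1 TPM at 24 h and 23.3, 32.3 and 27.8 TPM at 48 h (log2 change 0.03, limma adjusted p = 0.92, and -0.45 after scaling), so its groups overlapped.

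Block 1, from g16168 to g16197, held the 2 falls. The gene g16193, the most abundant of all genes called lower, had 9063, 8714 and 9136 TPM at 24 h, 5811, 5959 and 4670 TPM at 36 h and 4007, 3500 and 3896 TPM at 48 h, 2.36-fold lower (log2 change -1.24, SE 0.134, limma adjusted p = 2.4e-07). The gene g16177 had 173, 162 and 169 TPM at 24 h, 105, 104 and 84.9 TPM at 36 h and 80.8, 74.3 and 83.3 TPM at 48 h, 2.12-fold lower. Both fell through all 36 h libraries. Its border genes were not called. The values were 7.57, 8.67 and 6.87 TPM at 24 h and 5.26, 6.65 and 5.49 TPM at 48 h in g16168 (PvLil6, log2 change -0.36, limma adjusted p = 0.086). In g16197 they were 256, 195 and 166 TPM at 24 h and 239, 360 and 293 TPM at 48 h (log2 change 0.53, limma adjusted p = 0.065). The Block as a whole held 5.08% ± 0.057 of TPM at 24 h and 3.52% ± 0.119 at 48 h (SD, n = 3). The gene g16192 was called when 24 h replicate 1 was left out, with a log2 change of 1.06 in place of 0.67.

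Blocks 3 and 4 run from g16201 to g16204 and from g16205 to g16208, and their border genes encode LEA proteins. In limma, 0 of their 8 genes were called on TPM, where 13.3% of all genes tested were called higher and 0.571% lower. At an adjusted p below 0.05 alone, 0 of the 8 were higher and 5 lower, against 54.7% and 7.15% of all genes. The gene g16204 (PvLea4), one of the most abundant of the cells, had 14005, 14714 and 15260 TPM at 24 h, 9960, 10304 and 10810 TPM at 36 h and 8488, 7941 and 8631 TPM at 48 h (log2 change -0.81, SE 0.0568, limma adjusted p = 4.1e-10). Its groups did not overlap, as in 6860 of the 9450 genes tested, and its change fell short of 2-fold. The gene g16201 (PvLea17) had 518, 445 and 441 TPM at 24 h and 402, 393 and 401 TPM at 48 h (log2 change -0.23, limma adjusted p = 0.18). In Block 4, g16205 (PvLea5) had 9713, 10499 and 11618 TPM at 24 h and 11561, 11375 and 12396 TPM at 48 h (log2 change 0.15, limma adjusted p = 0.45), with 36 h replicate 3 above all of these at 15838 TPM. The gene g16208 (PvLea11) had 4988, 5197 and 5895 TPM at 24 h and 4421, 4162 and 4527 TPM at 48 h (log2 change -0.29, limma adjusted p = 0.0098). Also in Block 4, g16207 had 2491, 2612 and 2728 TPM at 24 h and 1377, 1287 and 1359 TPM at 48 h, a log2 change of -0.96. After scaling g16204 and g16207 were called lower, with log2 changes of -1.31 and -1.46, and the small positive values of g16203 and g16205 turned negative (-0.44 and -0.35). The share of TPM went from 2.81% ± 0.0902 to 2.17% ± 0.0887 in Block 3 and from 2.63% ± 0.199 to 2.36% ± 0.0974 in Block 4 (SD, n = 3, p = 0.1 and 0.2 in exact two-sided permutation tests).

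**Figure D5:**
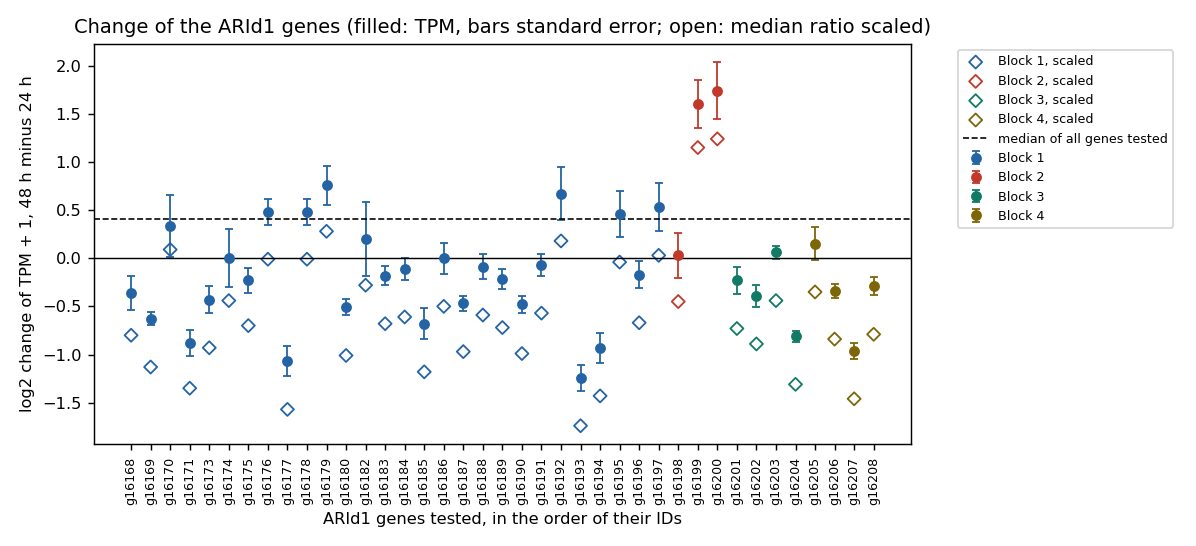
Log2 change of TPM + 1 from 24 h to 48 h for the 39 ARId1 genes tested, in the order of their IDs and coloured by Block, with filled points and standard errors for TPM and open diamonds after median ratio scaling. The dashed line marks the median of all genes tested at 0.41. Of the genes shown, g16199 and g16200 in Block 2 lie above 1 and g16177 and g16193 in Block 1 below -1 on TPM.

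Other genes known by name from work on Pv11 changed less. HSF (g3611), the heat shock factor, is a transcription factor that binds heat shock elements. It had 1038, 963 and 866 TPM at 24 h, 1156, 1041 and 1520 TPM at 36 h and 1492, 1534 and 1510 TPM at 48 h, a ratio of 1.58 (log2 change 0.66, SE 0.123, limma adjusted p = 1.3e-04). The groups did not overlap, which was so in 6860 of the 9450 genes tested. The change was under 2-fold, and after scaling it was 0.16 (limma adjusted p = 0.16). The subunits of nuclear factor Y, which binds CCAAT boxes, had log2 changes of -0.04 (NF-YA, g7210), 0 (NF-YB, g5893) and 0.4 (NF-YC, g11889), with limma adjusted p of 0.76, 1 and 0.0026, and the value of NF-YC turned to -0.07 after scaling. The value of NF-YB was -0.48 after scaling. Levels of NF-YA, NF-YB and NF-YC were 27.4 to 32.2 TPM, 22.5 to 25.6 TPM and 10.8 to 16 TPM over the 6 libraries, well below those of HSF. The gene g7775 had 39554, 37633 and 38590 TPM at 24 h and 28959, 27360 and 28735 TPM at 48 h, or 3.86% ± 0.096 and 2.84% ± 0.0866 of all TPM (log2 change -0.45, SE 0.0949, limma adjusted p = 4.7e-04). The noncoding gene nc472, which lies upstream of g7775, had 163, 146 and 144 TPM at 24 h and 134, 149 and 145 TPM at 48 h (log2 change -0.08, limma adjusted p = 0.56). Of the Lea genes outside ARId1, g17258 (PvLea12a) had 4.65, 4.28 and 2.01 TPM at 24 h and 4.81, 6.03 and 5.9 TPM at 48 h (log2 change 0.55, limma adjusted p = 0.059), and g17260 (PvLea12b), with 0.92, 0.71 and 1.15 TPM and 3.02, 1.41 and 1.47 TPM, was below the limit of the test.

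Single transcripts showed changes that the gene sums did not. Of 22728 transcripts with a mean TPM above 1, 2704 were higher (11.9%) and 448 lower (1.97%) at 48 h. Among the 2497 genes with a called transcript, 1317 were not called as a sum, and 115 genes had transcripts called in both directions, of which 109 were not called as a sum. In g16205 (PvLea5) the transcript g16205.t75 was listed at 0 in each 24 h library and had 1050, 1093 and 1168 TPM at 48 h. The transcript g16205.t69 had 261, 211 and 16.2 TPM at 24 h and was listed at 0 in each 48 h library. In g11137 the transcript g11137.t9 had 249, 390 and 618 TPM at 24 h and was listed at 0 at 48 h. Conversely g11137.t31 was listed at 0 at 24 h and had 140, 263 and 237 TPM at 48 h. The sum of g16205 also holds many transcripts that were not called, among them g16205.t39 with 1450 ± 121 TPM at 24 h and 486 ± 198 TPM at 48 h (limma adjusted p = 0.075). Of 13 HSF transcripts tested, 3 were called higher and 0 lower in limma. The values were 208, 232 and 221 TPM at 24 h and 487, 451 and 521 TPM at 48 h in g3611.t2 (log2 change 1.14, SE 0.293, limma adjusted p = 0.0061). In g3611.t16 they had 174, 157 and 167 TPM at 24 h and 407, 353 and 415 TPM at 48 h (log2 change 1.23, SE 0.34, adjusted p = 0.0095 in limma). The other transcripts of HSF include the remaining transcript called higher. Together they added up to 657, 575 and 478 TPM at 24 h and 599, 729 and 575 TPM at 48 h, so the groups of this sum overlapped.

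Transcripts listed at 0 in 1 of the groups compared were split over the rest of the course in the same way as the stepwise genes. There were 153 transcripts, of 143 genes, that were called higher and listed at 0 in all 3 libraries at 24 h, and 19 of these genes (13.3%, the share of all genes tested) were themselves called higher. Of the 153, 28, 25 and 133 had a value above 0 in 36 h replicates 1, 2 and 3, 130, 128 and 25 in 12 h replicates 1, 2 and 3, and 131, 112 and 142 in 0 h replicates 1, 2 and 3. The reverse held for 140 transcripts, of 124 genes, called lower and listed at 0 in all libraries at 48 h. Of these genes, 3 (2.42%, against 0.571% of all genes tested) were themselves called lower. Of the 140 transcripts, 102, 116 and 30 were above 0 in the 36 h replicates, 38, 28 and 107 in the 12 h replicates and 20, 54 and 33 in the 0 h replicates. For example, g16205.t75 had 621, 201 and 581 TPM at 0 h, 2725, 2604 and 0 TPM at 12 h and 0, 0 and 1857 TPM at 36 h. The estimation divides reads among the transcripts of a gene, so a transcript at 0 can be a result of that division, and what part it has here was not tested.

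The second day of preconditioning differed from the first in many genes. The change from 24 h to 48 h was set against that from 0 h to 24 h in the same fit, where both share the 24 h libraries. The difference was positive and past both thresholds in 3139 genes (33.2%) and negative in 503 (5.32%), with a median log2 difference of 0.59. After scaling it was so in 1705 (18.0%) and 1547 (16.4%), with a median of -0.05. Negative examples were genes whose level was low at 0 h, high at 24 h and lower again at 48 h. The gene g12482 had 11.5, 11.2 and 8.69 TPM at 0 h before its 118 to 129 TPM at 24 h and 35.3 to 44.5 TPM at 48 h (log2 difference -5.06, limma adjusted p = 1.1e-09). The ARId1 gene g16177 had 5.14, 6.71 and 4.97 TPM at 0 h before its 162 to 173 TPM at 24 h and 74.3 to 83.3 TPM at 48 h (log2 difference -5.76, limma adjusted p = 4.2e-14). The gene g7738 had 182, 144 and 153 TPM at 0 h (log2 difference -3.23, limma adjusted p = 4.1e-14). In contrast g6089 had 2918, 3076 and 2869 TPM at 0 h, above its later levels (log2 difference 1.12, limma adjusted p = 2e-05). The gene g16200 (PvLil2) had 4.6, 2.9 and 2.41 TPM at 0 h, below its later levels (log2 difference -1.97, adjusted p = 0.0023 in limma). Positive examples were stepwise genes such as g552, with 14.5, 5.25 and 14.5 TPM at 0 h (log2 difference 4.77, limma adjusted p = 8.5e-05), whose 0 h libraries were uneven as described above. Without 0 h replicate 2, 12 h replicate 3 and 36 h replicate 3, the calls in either direction numbered 4080 in place of 3642.

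After drying, the genes that had changed from 24 h to 48 h took different courses. The median TPM of the 1253 genes called higher was 16 to 17.6 over the 3 libraries at 0 h of rehydration, 27.3 to 28.9 at 12 h and 22.1 to 23.1 at 72 h, while that of all genes tested was 16.4 to 17.1, 27.4 to 29 and 23.9 to 24.6. From 0 h of rehydration on, the genes called higher thus stood close to the median of all genes. They had lain below it in all 24 h libraries (4.86 to 5.1 against 12.1 to 12.8) and nearer to it at 48 h (13.6 to 16.2 against 17.6 to 18.9). Their low level at 24 h follows in part from the calls, so this is a description. The 54 genes called lower had a median of 17.9 to 19.8 TPM at 0 h of rehydration, like the 18 to 20 TPM of 48 h, and 95.9 to 106 TPM at 72 h. Gene by gene, however, the median log2 difference of these genes at 72 h from their 24 h mean was 0.01, 0.01 and -0.02 in replicates 1, 2 and 3, so some lay above and others below their level of 24 h. In g3418 8.77 ± 1.36 TPM at 0 h of rehydration became 186 ± 10.4 TPM at 72 h, and in g933 6.23 ± 0.736 TPM became 107 ± 7.67 TPM, both above 24 h (SD, n = 3). At 72 h g7738 had 263 ± 37.8 TPM, g6222 164 ± 29.5 TPM and g12482 58.6 ± 21.7 TPM, all below 24 h (687 ± 12.7, 546 ± 10.8 and 124 ± 5.56 TPM), and g577, g6417 and nc388 were listed at 0 in all 3 libraries. In the stress experiment of the table, the genes called higher had a median of 3.8, 3.76 and 7.16 TPM in cells after 24 h in trehalose and 6.19, 4 and 5.65 TPM in untreated cells of the same time. The genes called lower had 53.9, 50.3 and 50.3 TPM in trehalose and 74.3, 82.7 and 80.5 TPM untreated, and all genes tested 10.6, 10.6 and 13.8 TPM and 14.7, 12 and 13.5 TPM. The treated and untreated libraries thus overlapped for the genes called higher and for all genes, and did not overlap for the genes called lower. As the study describes it, the stress experiment treated cells in culture medium and at a lower density than the course. Its trehalose group is thus not the same condition as PreCondTre 24 h.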

How the data were processed

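RNA of Pv11 cells was sequenced by the authors, who mapped the reads to the coding sequences of their gene set with Bowtie2 and RSEM through Trinity and deposited TPM per transcript for 84 libraries. The deposited TPM values carry no read counts, so depth is unknown and no counting interval is given. The study ran DESeq2 and edgeR on read counts, each time point against the one before, and those counts were not used here. Columns were matched to groups and replicates by name.

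TPM were summed per gene and the log2(TPM + 1) values were fitted in R 4.3.3 with limma 3.58.1 over the 30 libraries of the course, with 1 coefficient for each of 10 groups, a variance trend and empirical Bayes moderation. A fold change is on the log2(TPM + 1) scale, which understates that of low genes, and ratios of group means are on the TPM scale. Calls needed a Benjamini-Hochberg adjusted p under 0.05 over all genes tested and a fold change above 2. Shares of TPM were compared by exact two-sided permutation tests. Median ratio factors were taken over 9254 genes above 0 in every library. The fits were run on simulated data in which changes of either sign were added to some genes. Those data held no upward shift of the whole table, so they do not show how calls behave under such a shift. Figures were drawn with Python 3.11.15, pandas 2.3.3 and matplotlib 3.10.9.

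Named genes are the 10 largest rises and 10 largest falls among called genes whose groups did not overlap, the 5 most abundant and the 3 largest noncoding changes in each direction, and genes the study names by ID, with full statistics in ARId1 for Block borders and calls. The transcripts, and g16192, g16203 and g16207, were named after their values were seen. The members, lists and Blocks were chosen with earlier results of these data known, the Blocks by the study on these samples. Of 18248 gene IDs, 0 matched the reference names used here, so no other gene names, product lists, markers of the cell line or sequences are given. The labels number the replicates and do not say whether they are separate cultures, so p-values measure the spread between these samples. Alternatives were other filters, pseudocount, scaling, weights, thresholds, sample sets, a replicate block and leaving out libraries.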

Additional observations from a re-analysis of the deposited data

How the results depend on the processing

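The counts of genes higher and lower (1253 and 54 on TPM), of noncoding genes (189 and 5), of ARId1 genes (2 and 2) and of genes whose second day differed from the first (3642) stayed within 1.5 times without a variance trend, with all genes above 0, with a mean TPM above 0.5 or 2 or above 1 over the 6 libraries compared, with a pseudocount of 0.1 (1842 and 74 genes), with sample weights, with the groups compared alone and without the 36 h group. Median ratio scaling gave 456 genes higher and 271 lower, 122 and 18 noncoding genes and 9 ARId1 genes lower, since it removes the upward shift of the table. It also turned the sign of g11889 (-0.07), g5893 (-0.48), g16176 and g16178 (-0.01 each) and g16186 (-0.5). The same held for g16203 (-0.44), g16205 (-0.35), g16182 (-0.28), g16195 (-0.04) and g16198 (-0.45), and none of all these genes was called. Stricter limits (adjusted p below 0.001, over 4-fold) gave 76 genes higher and 1 lower, 27 and 0 noncoding genes, 0 and 0 ARId1 genes and 1030 genes for the second day. An adjusted p below 0.05 alone gave 5170 and 676 genes, 251 and 24 noncoding genes, 6 and 15 ARId1 genes and 5644 genes for the second day. Leaving out each library of 24, 36 or 48 h gave 1108 to 1412 genes higher, 50 to 61 lower, 156 to 201 and 5 to 7 noncoding genes, 2 to 3 and 2 ARId1 genes and 3373 to 3706 genes for the second day. Replicates that share a number did not deviate together (correlations of -0.19, -0.11 and 0.08), and with the replicate number as a block 1251 genes were higher and 53 lower. Depth is unknown, so low values carry an unknown error.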
